A study of Mus musculus with 12 samples.

Results

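The libraries described here came from OTII cells on Day 3 of priming in WT or Il6-/- recipients. OTII cells are CD4+ T cells whose transgenic receptor recognises a peptide of ovalbumin (OVA). The 3 Il6-/- Day 3 libraries were set against the 3 WT Day 3 libraries, which are 6 of the 12 libraries of the series. The other 6 came from the same genotypes on Day 5 and entered the estimate of the spread and the comparison between the days. Naive OTII cells from the spleen were transferred into congenic WT (C57BL/6J) or Il6-/- (B6.129S2-Il6tm1Kopf/J) mice, which then received house dust mite extract with LPS plus LPS-free EndoFit OVA intranasally. The OTII cells were then sorted from the mediastinal lymph nodes (mLNs). This account follows the study's methods, since the labels give blood as the tissue and leave out LPS. The donor cells carried an intact Il6 gene in both groups and only the recipients differed, so reads on Il6 cannot check the labels. Neither the labels nor the methods used here say whether the replicates were separate animals or pools, so the p-values measure only the spread between these libraries, which may be technical.

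IL-6 binds the IL-6 receptor together with the shared chain gp130 (Il6st) and signals mainly through STAT3. In CD4+ T cells it is known to favour Th17 and T follicular helper (Tfh) cells over other fates. Priming takes a resting T cell out of quiescence, and within days its surface receptors, transcription factors and metabolism change as it grows, divides and commits to a lineage. The comparison asked which of these genes differed between OTII cells primed with and without recipient IL-6 on Day 3.

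Between 18848994 and 26111657 reads were counted on genes in the 6 Day 3 libraries. Log2 CPM (counts per 1000000 on TMM-scaled library sizes) correlated across genes with r of 0.984 to 0.986 between libraries of 1 genotype and of 0.975 to 0.980 between genotypes. Markers of CD4+ T cells summed to 10864 to 12131 CPM in WT and 9900 to 10019 CPM in Il6-/- libraries, and 3 of the 11 (Trac, Trbc2 and Ptprc) passed as lower. The 14 B-cell markers summed to 603 to 686 CPM in WT and 555 to 638 CPM in Il6-/- libraries. Ighm made up nearly the whole of that sum and did not pass and Ebf1 was at 0, while Cd22 passed as higher and Pax5 as lower. The 18 myeloid and dendritic cell markers summed to 106 to 154 CPM in WT and 104.5 to 133 CPM in Il6-/- libraries. No member passed, Itgax, Clec9a and Clec10a were at 0, and Cst3 (82.8 to 89.1 CPM) made up most of the sum. S100a8 differed widely between libraries of 1 genotype, at 22.3, 10.4 and 0.109 CPM in WT and 0.158, 16.2 and 10.9 CPM in Il6-/- libraries. Lung epithelial markers summed to 1.09 to 3.04 CPM in WT and 0.634 to 17.7 CPM in Il6-/- libraries, and Sftpc passed as higher through the 9.33 CPM of Il6-/- replicate 2. A smaller share of cells with a transcript and less of the transcript per cell cannot be told apart in these bulk samples.

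Of 13570 genes tested, 1021 (7.52%) passed the FDR limit of 0.05 as higher and 840 (6.19%) as lower in Il6-/- than in WT recipients. With a change of at least 2-fold these were 127 (0.936%) and 245 (1.81%). The log2 fold change had a median of 0.45 among the genes that rose and of -0.64 among those that fell, beside 0.01 over all genes tested. Higher genes made up 54.9% of the calls with TMM scaling, 44.8% with upper-quartile scaling (791 higher and 974 lower) and 39.3% without scaling (703 and 1088). The 3 libraries of each genotype did not overlap for 4913 genes (36.2%), among them 1849 of the 1861 called. Leaving out WT replicate 2 left 460 genes higher and 482 lower, and leaving out WT replicate 3, Il6-/- replicate 1 or Il6-/- replicate 2 left 529 to 602 higher and 500 to 551 lower. In all, 398 higher and 391 lower genes passed in each of the 6 fits that left out 1 Day 3 library. In the text, rose and fell are used only of genes that passed in the comparison of all libraries, and a gene whose call was lost with 1 library left out is marked as such.

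For 37 gene lists, the members were sorted by what their products do. Across the lists, 182 of 1180 members tested rose (15.4%) and 154 fell (13.1%), beside 7.52% and 6.19% of all genes tested. The lists were chosen with earlier results of these data known, so nothing is read from that difference. Growth and division held more genes that rose (70 of 281, 24.9%) than fell (7, 2.49%), as did metabolism (50 of 261, 19.2%, and 4, 1.53%). Interferon genes held more that fell (39 of 89, 43.8%) than rose (9, 10.1%). So did signaling (32 of 202, 15.8%, and 7, 3.47%) and adhesion (14 of 72, 19.4%, and 3, 4.17%). Surface receptors (28 rose and 33 fell of 157, 17.8% and 21.0%) and transcription factors (15 rose and 26 fell of 123, 12.2% and 21.1%) were split.

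**Figure D1:**
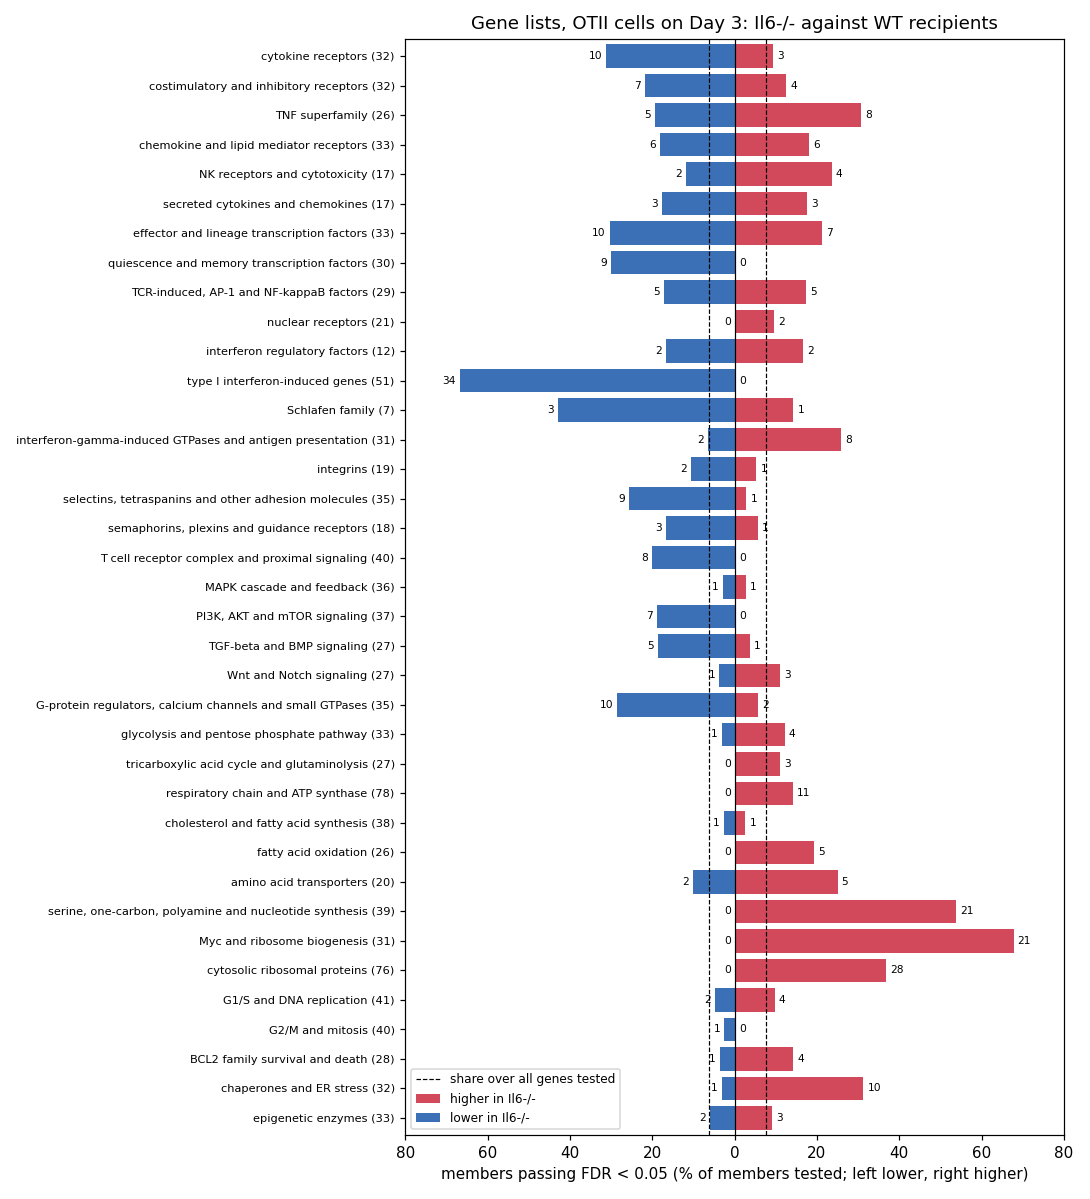
Share of the tested members of each of 37 gene lists that passed an FDR of 0.05 on Day 3, higher in Il6-/- to the right in red and lower to the left in blue, with the number of members tested in brackets and the number passing at the bar. The dashed lines mark the shares over all genes tested, 7.52% higher and 6.19% lower, and the longest bars belong to type I interferon-induced genes on the left and to ribosome biogenesis on the right.

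Among interferon-induced genes, most of the type I list fell, whereas the interferon-gamma list held genes of both directions and a median close to that of all genes tested. Type I interferons bind IFNAR and, through a complex that holds STAT2 and IRF9, switch on antiviral genes, whereas interferon-gamma has its own receptor and acts on guanylate-binding proteins and the antigen presentation machinery. Of 51 type I interferon-induced genes tested, 34 fell and 0 rose on Day 3 by edgeR. At an unadjusted p under 0.05, 2 members were higher, and DESeq2 and limma-voom each called 1 higher. The median log2 fold change of the list was -0.56, and 17 members fell by at least 2-fold. Leaving out 1 library left between 21 members lower (without Il6-/- replicate 2) and 32 (without Il6-/- replicate 3), and 19 passed in all 6 such fits. An overlap with other genes or with near-identical copies makes single members of the Ifit, Oas and Ifi families uncertain.

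Rtp4, a chaperone of surface receptors induced by interferon, had 36.2, 34.9 and 45.7 CPM in the WT libraries and 12.2, 9.18 and 14.2 CPM in the Il6-/- libraries, a log2 fold change of -1.71 ± 0.20 (SE) at an FDR of 8.7e-05. Its highest Il6-/- library lay below its lowest WT library. Irf7, the factor that amplifies the type I interferon response, went from 78.1, 70.1 and 84.7 CPM in WT to 26.6, 22 and 31.8 CPM in Il6-/- libraries (log2 fold change -1.53 ± 0.12, FDR 6.43e-06). Stat2 itself fell from 47.3, 43.4 and 43.1 CPM in WT to 30.6, 30.2 and 29.8 CPM in Il6-/- libraries (log2 fold change -0.56 ± 0.08, FDR 0.00049), and its partner Irf9 also fell (97 to 71.6 CPM, log2 fold change -0.44 ± 0.08, FDR 0.00283). Ifnar2, a chain of the receptor for these cytokines, fell from 118 to 80.7 CPM (log2 fold change -0.55 ± 0.08, FDR 0.000355). Phf11b fell by a log2 fold change of -0.70 ± 0.09. Ifi27 and Ifi27l2a, whose exons overlap each other, had log2 fold changes of -0.80 and -0.92. Irf7 shares exonic sequence with Phrf1 and Irf9 with Rnf31. The study's methods give the counting as unstranded, so strand did not separate overlapping genes and these counts are uncertain. Not all members passed as lower, and Ly6e had a log2 fold change of 0.10 and an FDR of 0.369.

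Of the Schlafen genes, a family that responds to interferon and includes a regulator of T-cell quiescence, 3 of 7 fell and 1 rose, and 2 of the lower genes, Slfn5 and Slfn1, passed in all fits that left out a library, whereas the higher one, Slfn9, passed in none. Slfn5 had 38.6, 39.7 and 41.1 CPM in the WT libraries and 12, 10.4 and 15.3 CPM in the Il6-/- libraries (log2 fold change -1.66 ± 0.13, FDR 7.74e-06), and its exons overlap those of the antisense gene Slfn5os. Slfn1 fell from 98.8 to 54.1 CPM (log2 fold change -0.87 ± 0.15, FDR 0.00158).

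Promoter windows of interferon-induced genes are shown because most members of the type I list fell. Windows from 250 bases before to 50 bases after each start site came from RefSeq (build GRCm38.p6, a different build from the GRCm39 of the counts), and 24 of the 34 lower genes of the type I interferon list matched a window. The motif GAAANNGAA, a core of the interferon-stimulated response element, was searched on both strands. Its letters can overlap those of the second motif searched, TTCNNNGAA. It occurred in 948 of 13243 windows of all genes tested (7.16%), and in 16 of 30 windows of the lower members of the list (53.3%). Members of the list that did not pass held it in 6 of 14 windows (42.9%), and lower genes outside the list in 74 of 905 (8.18%). TTCNNNGAA, the core bound by STAT dimers, was in 6.97% of all windows, 7.49% of those of lower genes and 8.74% of those of higher genes. A match is a description of the letters and not a binding site. The 4 windows that follow were picked after their values and motifs were seen and are written on the strand of the gene, with matches to GAAANNGAA on either strand in capitals. The first 3 belong to genes that fell and the last to Gbp2, which rose.
Oas1a, chr5:120907476-120907775 (- strand): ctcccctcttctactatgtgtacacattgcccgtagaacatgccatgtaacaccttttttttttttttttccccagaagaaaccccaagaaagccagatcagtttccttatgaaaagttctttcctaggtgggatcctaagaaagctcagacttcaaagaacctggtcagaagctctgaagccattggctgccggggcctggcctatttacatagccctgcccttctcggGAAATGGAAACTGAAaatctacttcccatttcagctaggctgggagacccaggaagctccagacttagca
Ifi213, chr1:173599223-173599522 (- strand): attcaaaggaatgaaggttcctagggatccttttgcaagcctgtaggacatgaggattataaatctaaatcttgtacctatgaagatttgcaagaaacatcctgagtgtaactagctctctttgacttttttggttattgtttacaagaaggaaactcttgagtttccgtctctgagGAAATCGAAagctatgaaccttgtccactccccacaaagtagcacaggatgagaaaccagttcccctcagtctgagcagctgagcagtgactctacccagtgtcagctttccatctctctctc
Slfn5, chr11:82951852-82952151 (+ strand): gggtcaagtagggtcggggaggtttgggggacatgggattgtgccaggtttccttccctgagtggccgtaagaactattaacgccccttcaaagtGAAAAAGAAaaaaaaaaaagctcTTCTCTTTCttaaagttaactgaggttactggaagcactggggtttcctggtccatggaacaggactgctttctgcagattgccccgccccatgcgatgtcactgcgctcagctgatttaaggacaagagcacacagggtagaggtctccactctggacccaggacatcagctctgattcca
Gbp2, chr3:142620413-142620712 (+ strand): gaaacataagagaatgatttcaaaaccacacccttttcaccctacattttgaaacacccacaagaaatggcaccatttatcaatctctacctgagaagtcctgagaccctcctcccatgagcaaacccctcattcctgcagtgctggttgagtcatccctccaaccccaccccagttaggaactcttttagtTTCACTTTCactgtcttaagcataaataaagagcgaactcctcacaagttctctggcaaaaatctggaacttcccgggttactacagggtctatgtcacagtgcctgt
Oas1a, an enzyme that senses double-stranded RNA, has 2 overlapping matches, at positions -20 and -14 from the start site, and it fell from 9.79, 10.6 and 13.9 CPM to 4.96, 5.25 and 4.55 CPM (log2 fold change -1.21 ± 0.19, FDR 0.000741). Ifi213 has 1 match, at position -73, and went from 13, 14.5 and 13.6 CPM to 3.64, 3.39 and 6.92 CPM (log2 fold change -1.55 ± 0.24, FDR 0.000703). Slfn5 has a match on each strand. The match in Gbp2 lies at position -58 on the opposite strand.

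Among 31 interferon-gamma-induced GTPases and antigen presentation genes, 8 rose and 2 fell. By sign alone 18 were higher and 13 lower, with a median of 0.09 beside 0.01 over all genes tested. Gbp2, a guanylate-binding protein, had 14.9, 13.3 and 15.1 CPM in the WT libraries and 22.4, 22.3 and 22.3 CPM in the Il6-/- libraries (log2 fold change 0.63 ± 0.10, FDR 0.000703). Gbp5, which promotes inflammasome assembly, rose from 2.70 to 6.69 CPM (log2 fold change 1.30 ± 0.24, FDR 0.00238), and Psme2, a subunit of the proteasome activator, rose from 384 to 536 CPM (log2 fold change 0.48 ± 0.08). These 3 calls held in all fits that left out a library, but the count of higher members fell to 3 without WT replicate 2, to 4 without Il6-/- replicate 2 or 3 and to 5 without WT replicate 1. H2-T23, which encodes the nonclassical class I molecule Qa-1, fell from 274 to 209 CPM (log2 fold change -0.39 ± 0.09). The interferon regulatory factors were also divided, with Irf7 and Irf9 lower and Irf8 and Irf5 higher out of 12. Irf8, a factor of myeloid and Th1 biology, had 55.7, 49.8 and 51.7 CPM in the WT libraries and 138, 122 and 99.2 CPM in the Il6-/- libraries (log2 fold change 1.19 ± 0.13, FDR 5.89e-05). Irf5 rose from 16 to 25.1 CPM (log2 fold change 0.65 ± 0.13). Exons of Gbp2, Psme2, Irf5 and H2-T23 overlap those of other annotated genes. MHC class II genes, as markers of antigen-presenting cells, summed to 83.8 to 121 CPM in WT and 123 to 137 CPM in Il6-/- libraries, with Cd74 higher and H2-Ob lower of 9 and H2-Aa at 0.390 to 1.43 CPM, and their part in these results was not tested.

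**Figure D2:**
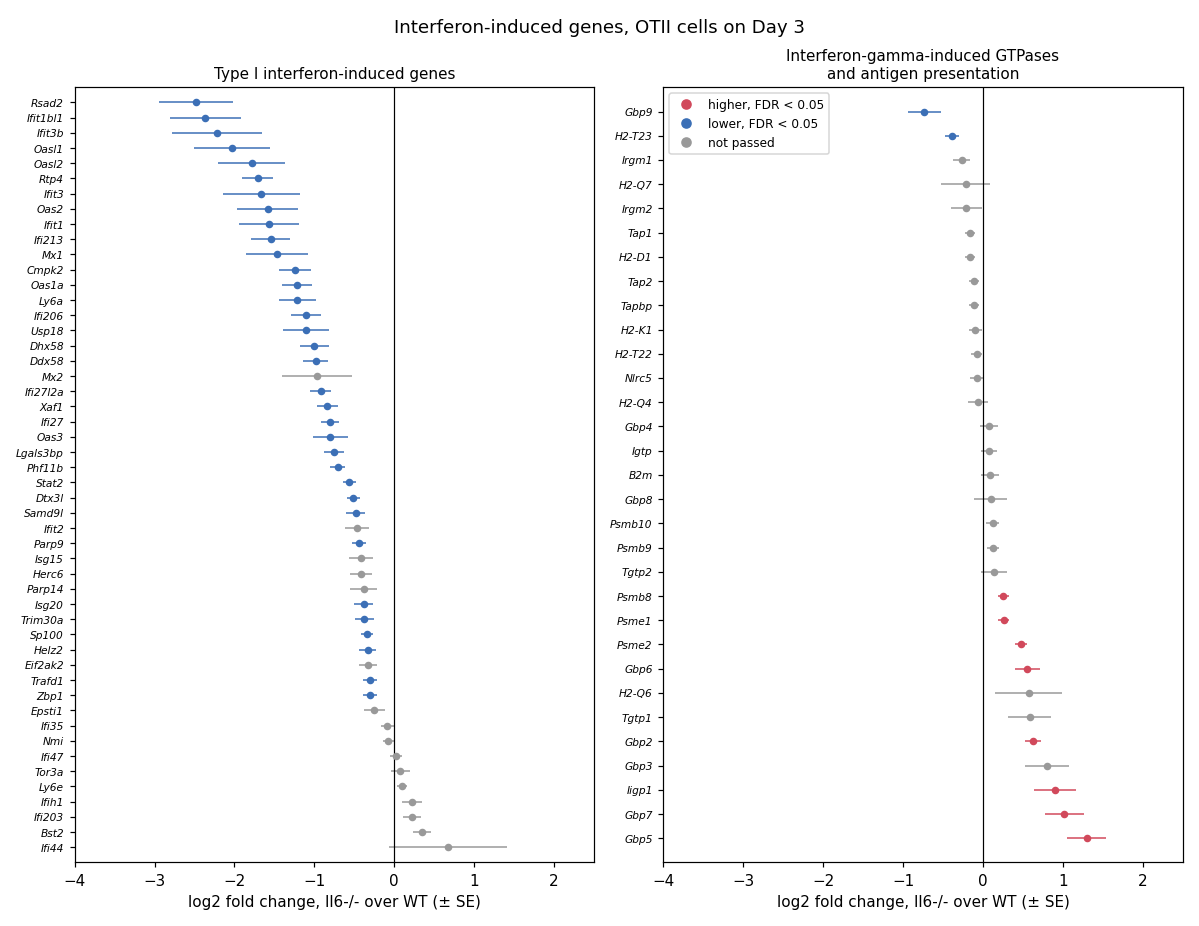
Log2 fold change (Il6-/- over WT, Day 3) of the tested members of 2 interferon lists (1 type I member that did not pass is not shown), with bars for the standard error. In the left panel, 34 of 51 type I interferon-induced genes fell and 0 rose, and in the right panel 8 of 31 interferon-gamma-induced and antigen presentation genes rose and 2 fell.

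Among surface receptors for cytokines more genes fell than rose. Of 32 cytokine receptors, 10 fell (31.25%) and 3 rose (9.38%), beside 6.19% and 7.52% of all genes tested (median -0.26). In every fit that left out a library, 9 of the lower but none of the higher calls held. Il1r1, the IL-1 receptor chain that supports Th17 cells, had 40.1, 43.7 and 49.3 CPM in the WT libraries and 5.49, 3.45 and 3.93 CPM in the Il6-/- libraries (log2 fold change -3.37 ± 0.38, FDR 7.02e-05). All 3 Il6-/- libraries lay far below all 3 WT libraries. Il17ra, the common chain of the IL-17 receptors, went from 254, 269 and 259.8 CPM to 146, 149 and 174 CPM (log2 fold change -0.74 ± 0.09, FDR 0.000121). Il17re and Il23r, a receptor for IL-17C and the Th17 receptor for IL-23, were low in WT and nearly absent in Il6-/- libraries (2.26 to 0.120 CPM and 2.59 to 0.137 CPM, with FDR 0.000168 and 0.00131). The 3 receptors that rose were Il10ra (log2 fold change 0.62 ± 0.15), Il7r (0.62 ± 0.16) and Il17rb (0.36 ± 0.10), and each lost its call with at least 1 library left out. Those libraries were WT replicate 1 and Il6-/- replicate 3 for Il10ra (FDR 0.0533 and 0.0643), and WT replicates 1 and 2 and Il6-/- replicate 2 for Il7r (FDR 0.0604 to 0.085). For Il17rb every library but WT replicate 1 was needed (FDR 0.0503 to 0.0884), and without scaling its FDR was 0.0624. Il6st, the signal-transducing chain for IL-6, had 178, 186 and 172 CPM in the WT libraries and 172, 157 and 149 CPM in the Il6-/- libraries, a log2 fold change of -0.17 ± 0.12 with an FDR of 0.411. Il21r likewise did not pass (-0.13, FDR 0.35).

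Of 32 costimulatory and inhibitory receptors, 4 rose and 7 fell, with 11 lower in the fit of the Day 3 libraries alone. Cd86, a ligand of CD28 and CTLA-4 that activated T cells can also carry, had 4.45, 3.86 and 2.93 CPM in the WT libraries and 26.3, 21.2 and 25.5 CPM in the Il6-/- libraries (log2 fold change 2.69 ± 0.22, FDR 7.74e-06). Cd83, an activation molecule, rose from 149.7, 110.0 and 98.9 CPM to 272, 306 and 245 CPM (log2 fold change 1.20 ± 0.16). Cd226, a costimulator that binds CD155, rose from 60.8 to 93.3 CPM (log2 fold change 0.62 ± 0.08, FDR 0.000198), and Tigit, the inhibitory receptor for the same ligand, fell. Tigit had 45.6, 54.7 and 60.2 CPM in the WT libraries and 5.54, 7.74 and 9.67 CPM in the Il6-/- libraries (log2 fold change -2.80 ± 0.49, FDR 0.00163), with the groups far apart. Pdcd1lg2, a ligand of PD-1, rose by 0.69 ± 0.13 on the log2 scale. Icos, a costimulator that Tfh cells depend on, went from 589, 635 and 629 CPM to 278, 292 and 334 CPM (log2 fold change -1.04 ± 0.09, FDR 9.57e-06). Cd28 (from 461 to 329.8 CPM, log2 fold change -0.48 ± 0.09) and Vsir, the inhibitory receptor VISTA (from 91.6 to 53.5 CPM, -0.77 ± 0.12), also fell.

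In the TNF superfamily 8 of 26 members rose and 5 fell, with a median of 0.26. Each fit without 1 library gave 5 higher members, and 4 were higher in all of them. Lta, the ligand lymphotoxin-alpha, had 42.5, 41.7 and 44 CPM in the WT libraries and 96.7, 94 and 77.1 CPM in the Il6-/- libraries (log2 fold change 1.06 ± 0.10, FDR 1.3e-05). Tnfsf11, the ligand RANKL, rose from 77.5 to 121 CPM (log2 fold change 0.64 ± 0.09). A pair of costimulatory receptors of activated and regulatory T cells rose as well, Tnfrsf4 or OX40 from 211 to 309 CPM (log2 fold change 0.55 ± 0.10) and Tnfrsf18 or GITR from 86.1 to 114 CPM (0.41 ± 0.08). Among the receptors that fell, Tnfrsf25, the death receptor DR3 for TL1A, had 58, 50.9 and 58.2 CPM in the WT libraries and 21.2, 13.8 and 15.2 CPM in the Il6-/- libraries (log2 fold change -1.74 ± 0.15, FDR 8.25e-06). Its exons overlap those of Espn. Cd27, a costimulator of early priming, had 90.1, 142 and 130.3 CPM in the WT libraries and 42.3, 56.2 and 59.8 CPM in the Il6-/- libraries (log2 fold change -1.19 ± 0.15, FDR 0.000132). Tnfrsf26 (log2 fold change -0.93 ± 0.14) and Tnfrsf14 or HVEM (-0.43 ± 0.08) fell as well. Markers of regulatory T cells, of which Tnfrsf4 and Tnfrsf18 are 2 of 12, summed to 734 to 801 CPM in WT and 906 to 1023 CPM in Il6-/- libraries. Of the 11 tested, 4 passed as higher and 1, Ikzf2, as lower, and by sign alone 6 were higher and 5 lower. The defining factor Foxp3 did not pass, with 6.63, 6.08 and 10.1 CPM in the WT libraries and 5.81, 3.92 and 5.50 CPM in the Il6-/- libraries. The part of these markers in these results was not tested.

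Receptors that steer T cells through lymph nodes went both ways. The sphingosine phosphate receptor S1pr1, which lets T cells leave lymph nodes, had 211, 260.3 and 258 CPM in the WT libraries and 106, 106 and 131 CPM in the Il6-/- libraries (log2 fold change -1.08 ± 0.10, FDR 1.15e-05). S1pr4 also fell (from 146 to 87.6 CPM, log2 fold change -0.74 ± 0.12), whereas S1pr3 rose from 0.468, 0.247 and 0.326 CPM to 5.76, 4.93 and 4.50 CPM (log2 fold change 3.82 ± 0.45, FDR 9.46e-05). None of these 3 receptors had libraries that overlapped between the genotypes. The same held for 1849 of the 1861 genes called and 36.2% of all genes tested. Cxcr5, the receptor that brings Tfh cells to B-cell follicles, had 149, 161 and 177 CPM in the WT libraries and 47.7, 67.7 and 63.1 CPM in the Il6-/- libraries (log2 fold change -1.45 ± 0.16, FDR 7.09e-05), and its exons overlap those of Bcl9l. P2rx7, an ATP-gated channel, fell from 129 to 76.6 CPM (log2 fold change -0.76 ± 0.12). Higher were Ptger4, a prostaglandin E2 receptor (from 69.3 to 113 CPM, log2 fold change 0.70 ± 0.10, FDR 0.000297), and Ccr6, the CCL20 receptor (from 45.3 to 78.4 CPM, 0.79 ± 0.16). Cxcr3, a Th1 chemokine receptor, rose from 20.9, 15.9 and 34.6 CPM to 44.4, 62.6 and 53.7 CPM (log2 fold change 1.17 ± 0.27, FDR 0.00906), a call lost without WT replicate 2 (FDR 0.0529). Ccr7, the homing receptor of naive cells, did not pass (log2 fold change 0.15, FDR 0.603). Over the 33 receptors tested, 6 rose and 6 fell, and without WT replicate 2 there were 3 higher.

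NK receptors and cytotoxicity genes showed 4 of 17 higher and 2 lower. Nkg7, a granule membrane protein, had 3.55, 2.13 and 5.32 CPM in the WT libraries and 21.2, 23.2 and 23.8 CPM in the Il6-/- libraries (log2 fold change 2.64 ± 0.28, FDR 3.71e-05). Klrb1c, which encodes NK1.1, rose from 4.82 to 20.9 CPM (log2 fold change 2.11 ± 0.18), and Ctsw, a cathepsin of cytotoxic cells, from 2.70 to 10.8 CPM (2.01 ± 0.33). The inhibitory receptor Klrc1 was low, at 1.52, 0.989 and 1.47 CPM in WT and 0, 0.106 and 0 CPM in Il6-/- libraries. Of 10 markers of CD8 T and NK cells, 1 passed (Klrb1c), and the summed level was 63 to 74.6 CPM in WT and 83.7 to 114 CPM in Il6-/- libraries. Klra4 and Klra8 were at 0, Ncr1 was at 0 in each Il6-/- library, and Cd8a reached at most 1.70 CPM, while Cd8b1 made up most of the sum. Their part in these results was not tested. Among 17 secreted cytokines and chemokines, 3 rose and 3 fell. Il21, the cytokine of Tfh and Th17 cells, had 26.5, 26.2 and 27.8 CPM in the WT libraries and 3.70, 3.82 and 3.89 CPM in the Il6-/- libraries (log2 fold change -2.82 ± 0.45, FDR 0.00088). Il17f fell from 1.28 to 0.120 CPM (log2 fold change -3.35 ± 0.73), and Il22, with a mean of 1.96 CPM in WT and no counts in Il6-/- libraries, was at least 12.8-fold lower against a floor of 3 counts per library. Ebi3, a subunit of IL-27 and IL-35, rose from 25.4 to 52.3 CPM (log2 fold change 1.04 ± 0.20, FDR 0.00311). Penk, the precursor of enkephalins, rose from 1.52 to 4.52 CPM (log2 fold change 1.60 ± 0.32), and its FDR was 0.0548 by limma-voom.

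**Figure D3:**
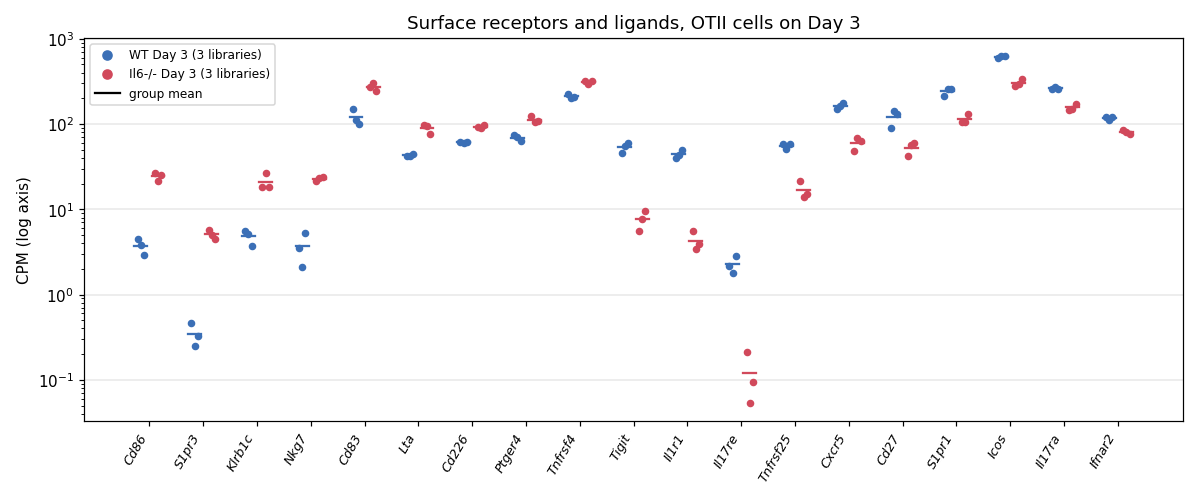
CPM on a log axis of 19 surface receptors and ligands in the 3 WT (blue) and 3 Il6-/- (red) Day 3 libraries, with a line at each group mean. Cd86 to Tnfrsf4 were higher and Tigit to Ifnar2 lower in Il6-/- libraries, and for none of the 19 did the groups overlap. All 19 had passed the FDR limit, and the groups did not overlap for 1849 of the 1861 genes called. The share over all genes tested was 36.2%.

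Transcription factors that define effector lineages moved in both directions. Of 33 effector and lineage factors, 7 rose and 10 fell, and 4 and 8 of these calls held in each fit that left out a library, with 4 higher without WT replicate 3. Tbx21, which encodes the Th1 factor T-bet, had 2.65, 2.32 and 2.71 CPM in the WT libraries and 12.1, 16.3 and 14.7 CPM in the Il6-/- libraries (log2 fold change 2.49 ± 0.29, FDR 8.7e-05). Runx2 rose from 5.21 to 16.2 CPM (log2 fold change 1.64 ± 0.23, FDR 0.000305), and its exons overlap those of Supt3. Ahr, the ligand-activated aryl hydrocarbon receptor, rose from 60.4, 31.2 and 38.4 CPM to 90.5, 89.8 and 95.8 CPM (log2 fold change 1.08 ± 0.19, FDR 0.00157). In WT, replicate 1 was the highest of its group for Ahr and still lay below every Il6-/- library. Among the lower genes, Bcl6, the factor Tfh cells require, had 35.8, 38.9 and 40.8 CPM in the WT libraries and 17, 19.3 and 15.7 CPM in the Il6-/- libraries (log2 fold change -1.15 ± 0.16, FDR 0.000384). Tox2 went from 127, 117 and 106 CPM to 24.1, 24.7 and 27.3 CPM (log2 fold change -2.20 ± 0.18, FDR 7.74e-06), and Pou2af1, a coactivator of octamer factors, from 69.7 to 29.4 CPM (log2 fold change -1.25 ± 0.18, FDR 0.000444).

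Of 30 factors linked to quiescence and memory, 9 fell and 0 rose by edgeR (median -0.23). A single member was higher at an unadjusted p under 0.05, DESeq2 called 1 higher and limma-voom 0. With 1 library left out the lower count ranged from 4 (without WT replicate 2) to 7 (without WT replicate 1) and was 5 in the other 4 fits, and 3 members passed in all of them. Satb1, a chromatin organizer, had 225, 236 and 244 CPM in the WT libraries and 98.3, 108 and 135 CPM in the Il6-/- libraries (log2 fold change -1.05 ± 0.14, FDR 0.000302). Ets1 fell from 1174 to 840.5 CPM (log2 fold change -0.48 ± 0.07), Lef1 from 273 to 205 CPM (-0.42 ± 0.08) and Tcf7, which encodes TCF-1, from 1435 to 1152 CPM (-0.32 ± 0.07). Tcf7 lost its call without WT replicate 2 (FDR 0.0543). Id3 did not pass, with 316 ± 19.2 CPM in WT and 355 ± 24.9 CPM in Il6-/- (mean ± SD, n = 3 each, FDR 0.426).

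Factors induced by the T-cell receptor and of the AP-1 and NF-kappaB families were split, with 5 higher and 5 lower of 29. Without Il6-/- replicate 1 there were 3 higher, and without WT replicate 2 or Il6-/- replicate 2 there were 3 lower, against 8 with the replicate block and 9 with the Day 3 libraries alone. Rel, the c-Rel subunit of NF-kappaB, had 32.4, 29.8 and 28.2 CPM in the WT libraries and 46.5, 49.3 and 54.6 CPM in the Il6-/- libraries (log2 fold change 0.73 ± 0.12, FDR 0.00133), and Nfkbid, an atypical inhibitor that acts with it, rose from 108 to 162 CPM (log2 fold change 0.59 ± 0.08, FDR 0.000365). Other atypical inhibitors of the same family went the other way, Nfkbiz from 86.4 to 54.1 CPM (log2 fold change -0.68 ± 0.11, FDR 0.000845) and Bcl3 from 52.8 to 25.3 CPM (-1.06 ± 0.24, FDR 0.00907). Nr4a3 rose from 4.26 to 8.59 CPM (log2 fold change 1.00 ± 0.22) and Egr2 fell from 40.4 to 23.5 CPM (-0.78 ± 0.12), although both respond to T-cell receptor signals. Nfatc1 did not pass (log2 fold change -0.11, FDR 0.521). Of 21 nuclear receptors 2 rose (9.52%) and 0 fell by edgeR, beside 7.52% and 6.19% of all genes tested. Of the higher calls, 1 held in all fits without 1 library. At an unadjusted p under 0.05, 2 were lower, and DESeq2 called 1 lower and limma-voom 0. Rxra, the retinoid X receptor that pairs with many of the others, had 47, 41 and 31.8 CPM in the WT libraries and 136, 125 and 107 CPM in the Il6-/- libraries (log2 fold change 1.62 ± 0.14, FDR 8.25e-06).

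**Figure D4:**
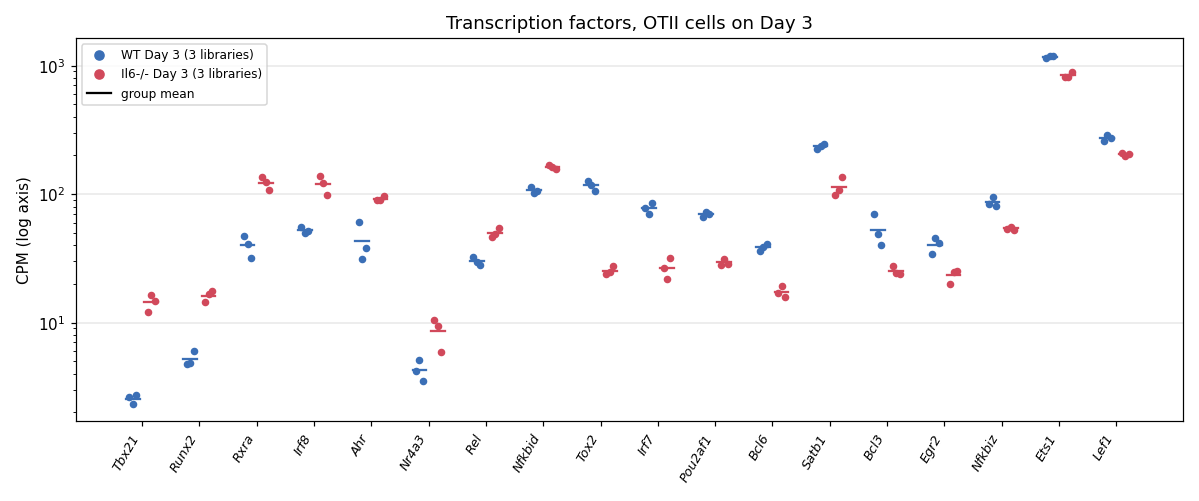
CPM on a log axis of 18 transcription factors in the 3 WT (blue) and 3 Il6-/- (red) Day 3 libraries, with a line at each group mean. Tbx21 to Nfkbid were higher and Tox2 to Lef1 lower in Il6-/- libraries.

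Among adhesion molecules more genes fell than rose. Of 35 selectins, tetraspanins and other adhesion molecules, 9 fell (25.7%) and 1 rose (2.86%), with a median of -0.21. The shares over all genes tested were 6.19% and 7.52%. The higher call was lost in each fit without 1 library. Emb, an immunoglobulin superfamily protein linked to integrin adhesion, went from 209.8, 221 and 229 CPM to 114, 127 and 123 CPM (log2 fold change -0.86 ± 0.07, FDR 7.74e-06). Cd53, a tetraspanin of leukocytes, fell from 560.3 to 279 CPM (log2 fold change -1.01 ± 0.15, FDR 0.00045). Adam12, a metalloprotease, was low in WT and nearly absent in Il6-/- (3.84 to 0.171 CPM, log2 fold change -4.45 ± 0.70). Pecam1, or CD31, fell from 116 to 85.5 CPM (log2 fold change -0.45 ± 0.08). It also made up nearly the whole sum of 13 stromal and endothelial markers, which summed to 115 to 119 CPM in WT and 83.3 to 90.4 CPM in Il6-/- libraries with Col3a1, Pdgfra, Ccl19, Ccl21a and Vwf at 0, and their part in this result was not tested.

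Of 19 integrins 2 fell (10.5%) and 1 rose (5.26%), near the shares over all genes tested (6.19% and 7.52%). Itgb7, the beta chain of the gut-homing integrin, had 711, 731 and 786 CPM in the WT libraries and 319.5, 382 and 492 CPM in the Il6-/- libraries (log2 fold change -0.90 ± 0.13, FDR 0.000371). Itga7, a laminin-binding chain, went from 4.41, 3.61 and 4.23 CPM to 0.422, 0.636 and 0.427 CPM (log2 fold change -3.03 ± 0.32, FDR 3.5e-05). Itgb1, the common beta chain, rose from 124 to 167 CPM (log2 fold change 0.42 ± 0.12, FDR 0.03). Its call was lost without scaling (FDR 0.0609) and without WT replicate 2 or 3 or Il6-/- replicate 1 or 2 (FDR 0.0859 to 0.151). Itgal, the alpha chain of LFA-1, did not pass (log2 fold change -0.07, FDR 0.655). Among 18 semaphorins, plexins and guidance receptors, Nrp1, a semaphorin coreceptor, rose from 30.9, 16.2 and 21 CPM to 54, 51.4 and 41.8 CPM (log2 fold change 1.11 ± 0.21, FDR 0.0025), and 3 fell, with Sema4f the first of them (from 35.4 to 14.7 CPM, -1.27 ± 0.15, FDR 7.14e-05) and Ephb6, an Eph receptor, the next (-0.53 ± 0.10).

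Several signaling genes near the T-cell receptor fell, mostly by small steps. Of 40 genes of the receptor complex and proximal signaling, 8 fell and 0 rose by edgeR (median -0.15). At an unadjusted p under 0.05, 1 was higher, and DESeq2 called 1 higher and limma-voom 0. The lower count ran from 5 without WT replicate 2 to 10 without WT replicate 1 or Il6-/- replicate 3, and 4 members passed in all 6 such fits. It was 13 under the replicate block, 14 with no low-count filter and 15 with the Day 3 libraries alone. Prkcq, the kinase PKC-theta at the synapse, had 361, 374 and 365 CPM in the WT libraries and 225, 228 and 251 CPM in the Il6-/- libraries (log2 fold change -0.64 ± 0.08, FDR 0.000168). Dgka, which ends diacylglycerol signals, fell from 748 to 463 CPM (log2 fold change -0.69 ± 0.08, FDR 0.000109), so genes with opposed effects on the same lipid signal both fell. Txk, a Tec family kinase, had a log2 fold change of -0.91 ± 0.14, and the adaptor Lat of -0.46 ± 0.08 (from 653 to 474 CPM, FDR 0.000989). Lck and Cd4 did not pass (log2 fold changes -0.09 and -0.08, FDR 0.299 and 0.481). Among 36 genes of the MAPK cascade and its feedback, 1 rose and 1 fell (2.78% each), below the shares over all genes tested. The higher call was lost in 4 of the 6 fits without 1 library, and the lower one was Mapk11 (log2 fold change -0.47 ± 0.10).

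G-protein regulators, calcium channels and small GTPases held 10 lower and 2 higher genes of 35 (median -0.15), and 8 and 2 of these calls held in all fits without 1 library. The lower count was 16 with the Day 3 libraries alone. Stim1, the calcium sensor of the endoplasmic reticulum, fell from 126 to 96 CPM (log2 fold change -0.39 ± 0.07, FDR 0.00214). Orai2, a channel subunit it gates, had 64, 69.9 and 78.2 CPM in the WT libraries and 41.9, 43.8 and 50.4 CPM in the Il6-/- libraries (log2 fold change -0.64 ± 0.10, FDR 0.000703), and the calcium-dependent kinase Camk4 fell from 127 to 86.7 CPM (-0.55 ± 0.09). Rgs16, a brake on G-protein signals, had 5.31, 5.34 and 2.88 CPM in the WT libraries and 17.5, 17.6 and 7.11 CPM in the Il6-/- libraries (log2 fold change 1.62 ± 0.34, FDR 0.00572). Its value in Il6-/- replicate 3 was well under those of the other 2 Il6-/- libraries and above each WT library. Rgs3 also rose (0.39 ± 0.09), whereas Rgs14 (-0.46 ± 0.08) and the G-protein subunit Gng2 (-0.47 ± 0.08) fell.

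Of 37 genes of PI3K, AKT and mTOR signaling, 7 fell and 0 rose by edgeR, with a median of -0.13. At an unadjusted p under 0.05, 2 were higher, and DESeq2 and limma-voom each called 1 higher. The lower count was 3 without WT replicate 2 or Il6-/- replicate 3 and 4 without WT replicate 3, and 2 members were lower in all 6 fits, whereas it was 11 without scaling and 13 with the Day 3 libraries alone. Sgk1, a kinase downstream of PI3K that supports Th17 cells, had 30.3, 34.5 and 35.7 CPM in the WT libraries and 13.5, 12.7 and 19.1 CPM in the Il6-/- libraries (log2 fold change -1.14 ± 0.18, FDR 0.000874), and Trib2, a pseudokinase linked to AKT signals, fell from 214 to 94 CPM (-1.18 ± 0.12, FDR 2.7e-05). In the TGF-beta and BMP list, 5 of 27 fell and 1 rose, with 3 lower without Il6-/- replicate 2. Tgfb3, a TGF-beta ligand made by Th17 cells, went from 15.4, 12.5 and 14.6 CPM to 1.74, 3.98 and 3.22 CPM (log2 fold change -2.25 ± 0.31, FDR 0.000277). The receptors Acvrl1 (from 7.04 to 2.15 CPM, log2 fold change -1.70 ± 0.34) and Tgfbr2 (from 154 to 114 CPM, -0.44 ± 0.09) fell too. Smad3, a transducer of TGF-beta, had a log2 fold change of -0.69 ± 0.16 and lost its call without Il6-/- replicate 2 (FDR 0.0556). Of 27 Wnt and Notch genes, 3 rose (11.1%) and 1 fell (3.70%), beside 7.52% and 6.19% of all genes tested. Wnt10a had 0.234, 0.198 and 0.380 CPM in the WT libraries and 3.54, 4.61 and 4.74 CPM in the Il6-/- libraries (log2 fold change 3.99 ± 0.34, FDR 7.74e-06), Notch2 rose from 53 to 79.6 CPM (0.59 ± 0.12) and Axin2, a target and inhibitor of Wnt signals, fell from 10.6 to 6.01 CPM (-0.82 ± 0.19).

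Many genes of cell growth rose in Il6-/- recipients, most of them by less than 2-fold. In the list of Myc and ribosome biogenesis, 21 of 31 members rose and 0 fell by edgeR (median 0.52). No member was lower at an unadjusted p under 0.05 (0 genes), and DESeq2 and limma-voom also called 0 lower. All 21 that rose belong to ribosome assembly and ribosomal RNA transcription, and Myc itself had 58.4, 60.8 and 53.5 CPM in the WT libraries and 81.4, 78.3 and 64.6 CPM in the Il6-/- libraries with an FDR of 0.0769. Myc passed without a low-count filter, with the Day 3 libraries alone and without Il6-/- replicate 3 (FDR 0.0126, 0.0174 and 0.0496). Leaving out 1 library gave 14 (without Il6-/- replicate 1) to 22 (without Il6-/- replicate 3) higher members, and 14 passed in all 6 fits. Npm1, nucleophosmin, had 1183, 1090 and 1181 CPM in the WT libraries and 1964, 1849 and 1827 CPM in the Il6-/- libraries (log2 fold change 0.71 ± 0.07, FDR 1.9e-05). Nop16 rose from 56 to 97.6 CPM (log2 fold change 0.80 ± 0.09, FDR 7.09e-05) and Gnl3, nucleostemin, from 50.1 to 96.3 CPM (0.94 ± 0.11, FDR 9.46e-05). Wdr43 (0.59 ± 0.08) and Nop56 (0.63 ± 0.10), parts of the small-subunit and snoRNA machinery, rose by similar amounts. Exons of Nop16, Gnl3 and Nop56 overlap those of other genes or snoRNAs.

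Of 76 cytosolic ribosomal proteins 28 rose and 0 fell by edgeR (median 0.25). At an unadjusted p under 0.05, 1 was lower, and DESeq2 and limma-voom called 0 lower. The log2 changes of those that rose were small, with Rpl7a the highest, at 444, 470.4 and 490.1 CPM in the WT libraries and 633, 666 and 613 CPM in the Il6-/- libraries (log2 fold change 0.45 ± 0.06, FDR 0.000446), and Rpl5 next (0.42 ± 0.06, FDR 0.000418). The count depended on the setting, at 14 with upper-quartile scaling, 16 without scaling, 54 with the replicate block and 55 with the Day 3 libraries alone. It also depended on single libraries, at 9 without Il6-/- replicate 2, 11 and 13 without WT replicate 2 and 1, 15 without Il6-/- replicate 1, 18 without WT replicate 3 and 25 without Il6-/- replicate 3. Ribosomal protein genes have many near-identical processed copies, and alignments that were not unique were not counted on genes. They made up 23.7% to 25% of all counts that HTSeq reported for a Day 3 library.

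Genes of biosynthetic metabolism rose as well. Of 39 genes of serine, one-carbon, polyamine and nucleotide synthesis, 21 rose and 0 fell (median 0.37, with 0 lower at an unadjusted p under 0.05 and by DESeq2 and limma-voom), and 8 rose in all fits that left out a library. The higher count was 8 without WT replicate 2, 10 and 14 without Il6-/- replicate 1 and 2, 11 without WT replicate 3, and 17 and 19 without Il6-/- replicate 3 and WT replicate 1. Srm, spermidine synthase, had 107, 71.4 and 66.3 CPM in the WT libraries and 202, 172 and 145 CPM in the Il6-/- libraries (log2 fold change 1.08 ± 0.21, FDR 0.00317). Shmt1, a folate enzyme that splits serine, rose from 78.3 to 136 CPM (log2 fold change 0.79 ± 0.13, FDR 0.00106), and Ppat, the first enzyme of purine synthesis, from 114 to 169.9 CPM (0.57 ± 0.10, FDR 0.00212). The polyamine enzymes Amd1 (0.61 ± 0.12) and Sms (0.48 ± 0.09) rose with Srm. Among 20 amino acid transporters, 5 rose and 2 fell, with 2 higher without WT replicate 2 or Il6-/- replicate 1 and 3 higher without WT replicate 1 or Il6-/- replicate 2 or with no or upper-quartile scaling. Slc7a5, which carries large neutral amino acids, had 78.4, 56.9 and 62.9 CPM in the WT libraries and 136, 116 and 125 CPM in the Il6-/- libraries (log2 fold change 0.93 ± 0.16, FDR 0.00156), and the arginine carrier Slc7a1 rose from 97.1 to 141 CPM (0.54 ± 0.09). Slc43a1, another carrier of neutral amino acids, fell from 5.43 to 1.78 CPM (-1.60 ± 0.33).

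The counts for energy metabolism depended on the setting. Of 78 genes of the respiratory chain and ATP synthase 11 rose and 0 fell (median 0.15, with 0 lower at an unadjusted p under 0.05 and by DESeq2 and limma-voom), but 1 call held in all 6 fits without a library, and the count ran from 4 without scaling and 6 with upper-quartile scaling to 21 with the Day 3 libraries alone and 23 with the replicate block. That call was Atp5g1, a subunit of the ATP synthase ring, at 302, 281 and 300.4 CPM in the WT libraries and 446, 443 and 411 CPM in the Il6-/- libraries (log2 fold change 0.56 ± 0.07, FDR 0.000168). With 1 library left out it was 1 without WT replicate 2 or Il6-/- replicate 1, 2 without Il6-/- replicate 2, 4 without WT replicate 1 and 5 without WT replicate 3 or Il6-/- replicate 3. Fatty acid oxidation had 5 of 26 members higher, and 3 without WT replicate 2 or 3 or Il6-/- replicate 1 or 2. Among the 5 were Eci1 (from 37.3 to 55.7 CPM, log2 fold change 0.58 ± 0.09, FDR 0.000977) and Acaa2 (from 134 to 179.8 CPM, 0.42 ± 0.10). In glycolysis and the pentose phosphate pathway, 4 of 33 rose (12.1%) and 1 fell (3.03%), beside 7.52% and 6.19% of all genes tested. The higher count was 2 without WT replicate 2 or 3 or Il6-/- replicate 1. It was 8 with no low-count filter, 9 with the Day 3 libraries alone and 13 with the replicate block. The lower count was 4 with the Day 3 libraries alone. Hk2, the inducible hexokinase, had 17.5, 11.1 and 13.8 CPM in the WT libraries and 30.5, 26.1 and 26.4 CPM in the Il6-/- libraries (log2 fold change 0.97 ± 0.20, FDR 0.00483), and the enolase Eno3 rose from 18.7 to 29.2 CPM (0.64 ± 0.10, FDR 0.000818). Ldha did not pass (log2 fold change 0.18, FDR 0.329). The tricarboxylic acid cycle list had 3 of 27 members higher (11.1%, beside 7.52% of all genes tested). None of these calls held in all fits without a library. The list of cholesterol and fatty acid synthesis had 1 higher and 1 lower of 38 (2.63% each), below the shares over all genes tested.

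Counts of cell cycle genes also depended on the setting. Of 41 genes of G1/S and DNA replication 4 rose (9.76%) and 2 fell (4.88%), near the shares over all genes tested. The higher count was 1 to 2 when any library but WT replicate 1 was left out and 2 with upper-quartile or no scaling. With no low-count filter 8 were higher, with the replicate block 11, and with the Day 3 libraries alone 12, where 5 were lower. Of 40 genes of G2/M and mitosis 1 fell and 0 rose by edgeR, a call lost without any library but Il6-/- replicate 3. With all 12 libraries none was higher at an unadjusted p under 0.05 (0 genes), or by DESeq2 or limma-voom (0 each). With the Day 3 libraries alone 5 fell and 1 rose. Ccnd2, cyclin D2, had 123, 157 and 134 CPM in the WT libraries and 252, 187 and 193 CPM in the Il6-/- libraries (log2 fold change 0.61 ± 0.12, FDR 0.0027). Cdkn2d, which inhibits the kinases that cyclin D binds, fell from 238 to 145 CPM (log2 fold change -0.71 ± 0.10, FDR 0.000269), and E2f2 from 101 to 66.5 CPM (-0.60 ± 0.14). Top2a, a marker of dividing cells, had a log2 fold change of -0.10 ± 0.18 and an FDR of 0.794.

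Survival genes of opposed function rose side by side. Bcl2l1, which encodes BCL-XL, had 80.2, 77 and 65.9 CPM in the WT libraries and 162, 146 and 134 CPM in the Il6-/- libraries (log2 fold change 0.99 ± 0.13, FDR 0.000251). Bcl2l11, which encodes the death-promoting BIM, rose from 10.5, 9.54 and 8.47 CPM to 24, 20.4 and 20.4 CPM (log2 fold change 1.18 ± 0.15, FDR 0.00022), and Bid, another BH3 protein, from 43.7 to 82.6 CPM (0.92 ± 0.11, FDR 0.000144). These 3 were among 4 higher of 28 members (14.3%), with 1 lower (3.57%), beside 7.52% and 6.19% of all genes tested. Of 32 chaperones and ER stress genes 10 rose and 1 fell (median 0.27), and 5 rose in all fits without 1 library. The count was 5 without WT replicate 2, 6 without WT replicate 3 or Il6-/- replicate 1, 6 without scaling, 16 with the Day 3 libraries alone and 18 with the replicate block. Hsp90ab1, the constitutive HSP90, rose from 2700 to 3831 CPM (log2 fold change 0.50 ± 0.08, FDR 0.000954). The mitochondrial chaperones Hspa9 (0.70 ± 0.12), Hspd1 (0.76 ± 0.10) and Hspe1 (0.85 ± 0.10) rose too, of which Hspd1 and Hspe1 overlap. Of 33 epigenetic enzymes 3 rose (9.09%) and 2 fell (6.06%), near the shares over all genes tested, and 1 of each held in all fits without 1 library. The DNA methyltransferase Dnmt3a was higher (from 110.4 to 149 CPM, 0.43 ± 0.09) and the histone methyltransferase Ezh1 lower (from 60.5 to 40.4 CPM, -0.58 ± 0.10).

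**Figure D5:**
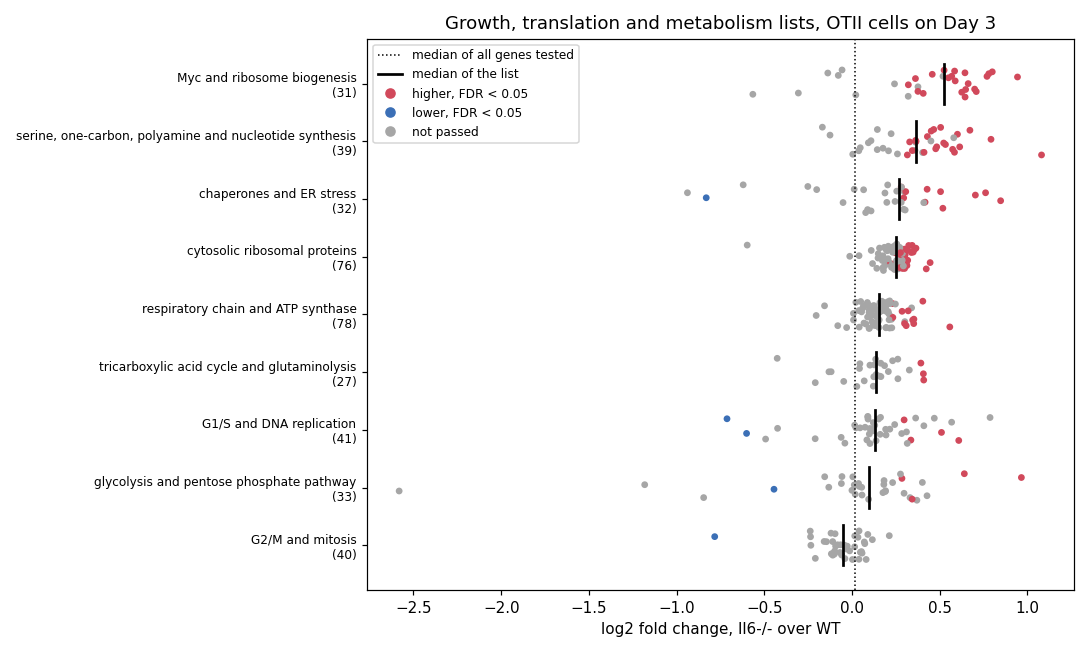
Log2 fold change (Il6-/- over WT, Day 3) of each tested member of 9 lists of growth, translation and metabolism, one point a gene, spread vertically only to separate the points. Thick lines mark list medians, from 0.52 for Myc and ribosome biogenesis to -0.05 for G2/M and mitosis, and the dotted line the median of all genes tested.

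Several of the genes with the smallest p-values lay outside the themes above. Chchd10, a mitochondrial intermembrane protein, rose from 20.9 to 52.2 CPM (log2 fold change 1.33 ± 0.11, FDR 7.74e-06). Unc93b1, which carries nucleic acid-sensing Toll-like receptors to endosomes, had 24.5, 26.6 and 26.3 CPM in the WT libraries and 52.6, 49.1 and 56 CPM in the Il6-/- libraries (log2 fold change 1.03 ± 0.09, FDR 1.04e-05). Sik1, a salt-inducible kinase, rose from 4.07 to 16.5 CPM (2.01 ± 0.22, FDR 4.87e-05), and Il18, a cytokine of the IL-1 family, from 1.12 to 4.86 CPM (2.11 ± 0.26, FDR 0.000141). Among the lower genes, Syt11, a vesicle protein, went from 97.4, 102 and 84.5 CPM to 43.2, 40.4 and 42.9 CPM (log2 fold change -1.17 ± 0.08, FDR 4.24e-06). Selenop, a selenium carrier, had 109.8, 120.2 and 119 CPM in the WT libraries and 44.2, 44.2 and 61.9 CPM in the Il6-/- libraries (log2 fold change -1.22 ± 0.11, FDR 1.04e-05), and Slc9a9, an endosomal sodium-proton exchanger, fell from 58.6 to 24.3 CPM (-1.27 ± 0.12, FDR 1.44e-05). Gmfg, an actin regulator of leukocytes, fell from 209 to 91.6 CPM (-1.19 ± 0.11, FDR 1.04e-05). Pear1, a platelet and endothelial aggregation receptor, and Gramd4, a mitochondrial membrane protein, had log2 fold changes of -1.28 and -1.30, and Susd3 of -1.29. Exons of Chchd10, Syt11, Selenop and Pear1 overlap those of neighbours.

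The Day 3 differences were then set beside those on Day 5, which rest on separate libraries. At an FDR of 0.05, 668 of the 13570 genes (4.92%) had a genotype effect that was not the same on both days, and they included 422 of the 1861 genes called on Day 3, of which 214 had risen and 208 had fallen. The test of that difference lost most of its calls when any of 4 libraries was left out, with 235 genes without WT replicate 2, 257 without WT replicate 3 and 258 without Il6-/- replicate 1 or 2, so it is given by list and for single genes with that limit. Over all genes tested, 1.27% were higher and 3.35% lower in Il6-/- recipients on Day 5. Counts of libraries of the same group differed more on Day 5 (chi-square per degree of freedom 15.7 to 35.1) than on Day 3 (5.71 to 15.2). Few calls on Day 5 therefore do not show that an effect was absent. The list of G2/M and mitosis, for example, had a median of 0.69 on Day 5 with 1 gene called higher. Of the 51 type I interferon-induced genes, 2 were lower on Day 5, a share near that background (median -0.18), and the effect differed between the days for 8 members, all among the 34 lower on Day 3. Ribosomal proteins, of which 28 were higher on Day 3, were lower for 10 members on Day 5 (median -0.25), and the difference passed for 53 of the 76 tested, of which 24 were among the 28. In the respiratory chain, the medians were 0.15 on Day 3 and -0.15 on Day 5, where 3 of 78 members fell, also near the background. For Myc and ribosome biogenesis the Day 5 median was 0.10, with 1 gene higher, and 7 members differed between the days, all among the 21 higher on Day 3. For Emb (-0.86 and -0.59), Satb1 (-1.05 and -0.84) and Nkg7 (2.64 and 1.92), the effects on Day 3 and Day 5 had the same sign and their difference did not pass (FDR 0.163, 0.625 and 0.316).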

How the data were processed

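Poly(A) RNA of sorted OTII cells was sequenced as single reads after ultra-low input library preparation. Per the submitters' processing notes, the authors used Trim Galore 0.4.4, STAR 2.5.2a, HTSeq 0.6.1p1 and GRCm39, and they deposited raw read counts per gene and library. HTSeq's lines for reads outside genes, ambiguous or not unique were left out. Of all counts that HTSeq reported for a Day 3 library, 60.2% to 62.2% lay on genes.

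Of 40840 genes listed, 13570 passed edgeR's filterByExpr. The 4 groups of 3 libraries were fitted with TMM scaling and the quasi-likelihood F test of edgeR 4.0.16 (R 4.3.3), with Benjamini-Hochberg adjustment (FDR) over all genes tested. A gene was called at an FDR under 0.05, and differences between the days were tested by the interaction. CPM used TMM-scaled library sizes, and log2 fold changes are Il6-/- over WT. Their SE is the size of the log2 fold change divided by the square root of its F statistic. It rests on the spread estimated over all 12 libraries and does not describe the spread of the Day 3 libraries alone. In simulated data for the Day 3 contrast (13220 genes), 71% of 2-fold and 89.7% of 4-fold changes were recovered, with 5 false calls. The simulated counts took their spread from the fitted trend, without gene-to-gene differences around it or structure shared between libraries. The rates in the real data may therefore differ. With 3 libraries a group the smallest two-sided p of an exact permutation test is 0.1, so none was used.

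The comparison, the 37 gene lists and the tests were chosen with earlier results of these data known. Lists are described by counts and medians, and a gene in several lists counts in each. Named genes are the members of a list with the smallest p in each direction (at most 5), up to 2 that did not pass with the highest mean CPM, and leading genes of the whole table. Those that lost their call with a library left out are counted but, with marked exceptions, not named. Oas1a, Ifi213 and Myc were named after their values were seen. Results of a few genes under this rule are not reported here.

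Exons of 779 called genes overlap another gene of GENCODE vM39 (GRCm39), which makes their counts uncertain. Beside those marked in the text these include Il17rb, Cd226, Tnfrsf18, Cd27, Tnfrsf26, S1pr3, Ptger4, Ccr6, P2rx7, Ctsw, Ebi3, Penk, Il22, Nrp1, Ephb6, Dgka, Lat, Trib2, Tgfb3, Tgfbr2, Wnt10a, Camk4, Shmt1, Ppat, Wdr43, Rpl5, Rpl7a, Ccnd2, Bid, Hsp90ab1, Dnmt3a and Ezh1.

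The alternatives were RLE, upper-quartile and no scaling, no low-count filter, a filter of more than 1 CPM in 3 libraries, DESeq2 1.42.0, limma-voom (limma 3.58.1), a replicate block, the Day 3 libraries alone, a test against 2-fold (glmTreat) and each Day 3 library left out.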

Additional observations from a re-analysis of the deposited data

Results flagged for a closer look

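The genotype effect differed between Day 3 and Day 5 at an FDR of 0.05 for 74 of the 161 named genes, by edgeR's interaction test over the 12 libraries, beside 4.92% of all genes tested. Most named genes were chosen for a small p on Day 3, so nothing is read from the difference between these shares. For 44 of the 74 the difference also passed in each of the 6 fits that left out 1 Day 3 library. Values are the log2 effect (Il6-/- over WT) on Day 3 minus that on Day 5, so a negative value means a lower effect on Day 3 than on Day 5. Among interferon genes the differences were -1.30 for Irf7, -0.67 for Stat2 and -1.58 for Slfn5. For surface receptors and cytokines they were -0.85 for Il17rb, -0.91 for Icos, -3.19 for Tigit, -1.02 for Tnfrsf25, -0.93 for S1pr1, -1.55 for Cxcr5, -0.85 for P2rx7, -0.89 for S1pr4 and 2.70 for Klrb1c. The effect on Il17rb was above 0 on both days (0.36 on Day 3 and 1.21 on Day 5). For Icos, Tigit and Klrb1c the Day 5 effects were -0.12, 0.39 and -0.60. Among transcription factors the differences were -1.52 for Tox2, -1.12 for Bcl6, -1.25 for Pou2af1 and 0.98 for Rxra. The difference was -3.16 for the integrin Itga7. For signaling genes they were -0.62 for Dgka, -0.64 for Prkcq, -0.93 for Trib2, -2.65 for Tgfb3 and 4.32 for Wnt10a. In metabolism they were 1.11 for Eno3, 0.63 for Atp5g1, 1.47 for Slc7a5 and 1.99 for Srm. The Day 5 effects of these genes were -0.47, -0.07, -0.54 and -0.91. Among ribosome biogenesis and ribosomal proteins the differences were 0.60 for Npm1, 0.77 for Nop16, 0.90 for Gnl3, 0.60 for Wdr43, 0.50 for Rpl5 and 0.49 for Rpl7a. For division, survival and chaperones they were -0.70 for Cdkn2d, 1.29 for Bcl2l11 and 0.78 for Hspe1. For genes outside the lists they were 1.19 for Chchd10, 1.5 for Sik1, 1.87 for Il18, -0.85 for Syt11, -0.89 for Susd3, -1.01 for Pear1, -0.93 for Selenop, -1.34 for Slc9a9 and -0.89 for Gramd4. No group had more than 3 libraries, so single libraries could not be tested as outliers.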

How the results depend on the processing

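With 1 Day 3 library left out, 460 to 838 genes were higher and 482 to 722 lower (1021 and 840 with all libraries), 83 to 121 were higher and 174 to 233 lower by at least 2-fold, and the genotype effect differed between the days for 235 to 697 genes (668 with all). That last count was 1300 with no low-count filter and 1132 by DESeq2, and 1303 genes were lower with the Day 3 libraries alone. A test against 2-fold left 15 genes higher and 20 lower. The causes were not tested, except that leaving out a library leaves fewer samples and the test against 2-fold asks for more than a difference from 0. The median log2 fold change of all genes moved from 0.01 to -0.02 with upper-quartile scaling and to -0.04 without scaling.

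Deviations from the group means correlated weakly between WT and Il6-/- libraries of 1 replicate number (0.03, 0.06 and 0.03 for numbers 1, 2 and 3). Each library still correlated best with its own number, so the numbers may pair the libraries. The sources used here do not say so, and the main fit did not pair them. The fit with the replicate block gave 1477 genes higher and 1181 lower, more than the 1021 and 840 of the main fit. By at least 2-fold there were 138 and 271, and 1564 genes differed between the days.

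Of 149 named genes that passed, 141 kept their call and none turned its direction in the alternatives that tested them, with the test against 2-fold left out of this count. The libraries that 7 of the others depend on stand beside them in the text, and the remaining gene, Penk, missed the threshold by limma-voom. Genes that lost their call with a library left out were, with marked exceptions, not named. The share that kept its call therefore does not measure how stable the calls are. Among all 1861 genes called, 398 higher and 391 lower passed in each of the 6 fits that left out 1 Day 3 library. Ldha passed with the replicate block (FDR 0.024) and Il6st with the Day 3 libraries alone (FDR 0.0475). List counts of 3 or fewer rest on single genes and moved by up to 3 members with 1 library left out. Depth limits the genes under about 1 CPM, where Klrc1 and Il22 have counts of 0.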
